A study of Homo sapiens with 23 samples.

Results

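The 10 genes described here encode fibrinogen and a set of clotting proteins made mainly by the liver. They were found by symbol in the table of TPM (a length-corrected transcript abundance scaled to the same total in each library) of every library, and all 10 had exactly 1 row among 60564 genes. The 23 libraries came from 2 established human cell lines, 11 from Caco-2, a colon carcinoma line used as a gut model, and 12 from HepG2, a liver carcinoma line used as a hepatocyte model. Both lines grew on a gut-liver chip, the iGLC platform, either alone (mono-cultured) or joined to the other line by circulating medium (co-cultured). For 1 day they received FFAs, a mixture of palmitic and oleic acid at 1:2 and 1 mM in total, or medium with no FFAs (control). The labels give 0.5% fetal bovine serum in the treatment medium, whereas the study's methods describe medium with albumin and no serum. Each line thus had 4 groups: mono-cultured control, mono-cultured with FFAs, co-cultured control and co-cultured with FFAs. Every group had 3 libraries except the co-cultured Caco-2 control with 2. Each line is a single tumor-derived line, the cells of the other line stood in a separate chamber of the same chip, and nothing in the labels says how many chips fed a library.

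Fibrinogen is a hexamer of paired alpha, beta and gamma chains, encoded by FGA, FGB and FGG. Thrombin, the active form of F2, cuts it so that it polymerizes into fibrin. F7, with tissue factor, starts clotting, and F10 and its cofactor F5 turn prothrombin into thrombin, while F12 starts the contact pathway. PROC encodes protein C, which switches off the cofactors, and PLG encodes plasminogen, the precursor of the protease that dissolves fibrin. F2, F7, F10 and protein C need vitamin K-dependent carboxylation. Hepatocytes are the usual source of all of them, the fibrinogen genes respond to interleukin-6, and Caco-2 cells are known to carry out parts of the liver program.

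On GRCh38, the assembly of the files, the 3 fibrinogen genes lie side by side on chromosome 4 within 49957 bp. FGB is at chr4:154563011-154572807 on the plus strand, FGA at chr4:154583126-154590742 and FGG at chr4:154604134-154612967, both on the minus strand. F7 (chr13:113105788-113120685) ends 2113 bp before F10 (chr13:113122799-113149529), both on the plus strand. The other members are dispersed: F2 at chr11:46719196-46739506, F5 at chr1:169511951-169586588, F12 at chr5:177402133-177416583, PLG at chr6:160702194-160754097 and PROC at chr2:127418427-127429242, with F5 and F12 on the minus strand. All are protein-coding genes in GENCODE v44, and the values below are sums over each gene's transcripts. The kit does not mark strand, so reads shared between F12 and GRK6, which overlaps it on the opposite strand and reached 102 TPM, cannot be told apart. F10 overlaps the pseudogene KARS1P2, which reached 5.03 TPM, and the antisense RNA F10-AS1, which reached 0.65 TPM. The near-copies of PLG (PLGLA, PLGLB1, PLGLB2 and LPA) stayed at or below 0.67 TPM in every library.

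The sequences upstream of FGA and FGB, neighboring genes that moved together in both lines, are shown. Each is the 250 bases before the RefSeq start (GRCh38.p14), at chr4:154590743-154590992 on the minus strand for FGA and chr4:154562761-154563010 on the plus strand for FGB. Capitals mark matches on either strand to TTGCNNAA (a C/EBP motif) and CTGGGA (the core of an interleukin-6 response element).
FGA: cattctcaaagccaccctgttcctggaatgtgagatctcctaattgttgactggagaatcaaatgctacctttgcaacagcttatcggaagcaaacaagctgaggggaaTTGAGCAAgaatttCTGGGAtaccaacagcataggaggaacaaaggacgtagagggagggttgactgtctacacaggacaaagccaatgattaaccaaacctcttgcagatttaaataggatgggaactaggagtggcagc
FGB: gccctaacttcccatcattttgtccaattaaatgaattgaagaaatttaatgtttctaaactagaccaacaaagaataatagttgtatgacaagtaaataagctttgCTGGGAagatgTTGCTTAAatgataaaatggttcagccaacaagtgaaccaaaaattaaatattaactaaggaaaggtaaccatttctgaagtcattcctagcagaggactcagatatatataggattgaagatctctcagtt
Both windows held 1 match to each motif, and the matches did not overlap. The C/EBP match lay 141 to 134 bases before the start in FGA and 132 to 125 bases before it in FGB. FGG moved with these genes as well, but its window lies inside the GENCODE bounds of the gene, so its sequence is not printed. The FGG window held 2 matches to CTGGGA and 0 to TTGCNNAA. Among the 10 members, 2 windows held TTGCNNAA (FGA and FGB), against 9.06% of all 34943 RefSeq windows of this length. CTGGGA was in 7 members and in 28.7% of all windows. F7, F12 and PROC held none of these letters in this window, which says nothing on the factors themselves.

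The libraries were first compared with their labels. Summed over 8 hepatocyte markers (ALB, AFP, APOA2, AHSG, TF, TTR, APOH and SERPINA1), HepG2 libraries had 62690 to 93116 TPM, and all 8 reached 1 TPM. In Caco-2 libraries all 8 reached it as well, with sums of 5222 to 7381 TPM. Summed over 8 enterocyte markers (CDX1, CDX2, VIL1, LGALS4, CDH17, GPA33, KRT20 and SI), Caco-2 libraries had 863 to 1157 TPM and HepG2 libraries 155 to 245 TPM. In a HepG2 group 1 or 2 of the 8 reached 1 TPM, and in a Caco-2 group 5 or 7. Of these, CDH17 was at 354 to 480 TPM in Caco-2 and at most 2.75 TPM in HepG2 libraries, whereas CDX1 was at most 0.18 TPM in all libraries. The labels' extraction text names primary myoblasts, but 6 myoblast markers together stayed at or below 2.49 TPM, with MYOD1 at 0 in every library. Blood and endothelial lists were led by CD14 and EGFL7, at up to 17.4 and 37.3 TPM in Caco-2, while PTPRC, HBB, CDH5 and TEK did not exceed 0.59 TPM anywhere. In every Caco-2 group 2 of 4 endothelial markers reached 1 TPM (EGFL7 and PECAM1), with sums of 29.3 to 43.1 TPM over the libraries. Of 4 blood markers, 1 reached it in every Caco-2 group. TPM carry no read counts, so the depth behind each library is unknown and no counting interval can be given. Between 19259 and 23689 genes were above 0 TPM per library.

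Genes that mark the other line were also followed, with 34 genes that mark HepG2 and 63 that mark Caco-2 (at least 50 TPM in every mono-cultured control library of their own line and at most 1 TPM in the other), members left out. In mono-cultured Caco-2 libraries the summed HepG2 markers reached 0.1% to 0.183% of their HepG2 level. In co-cultured Caco-2 libraries they stood at 0.825% and 0.0883% in the controls, and at 2.08%, 0.242% and 0.105% with FFAs (replicates 1 to 3). Replicate 1 of both co-cultured Caco-2 groups and replicate 2 with FFAs were thus above the mono-cultured range, and control replicate 2 and replicate 3 with FFAs were not. Caco-2 markers in HepG2 libraries ranged from 0.127% to 0.242% in mono-culture and from 0.19% to 0.613% in co-culture. In HepG2, the 4 libraries numbered 3 also stood apart together, as described with PLG below.

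**Figure D1:**
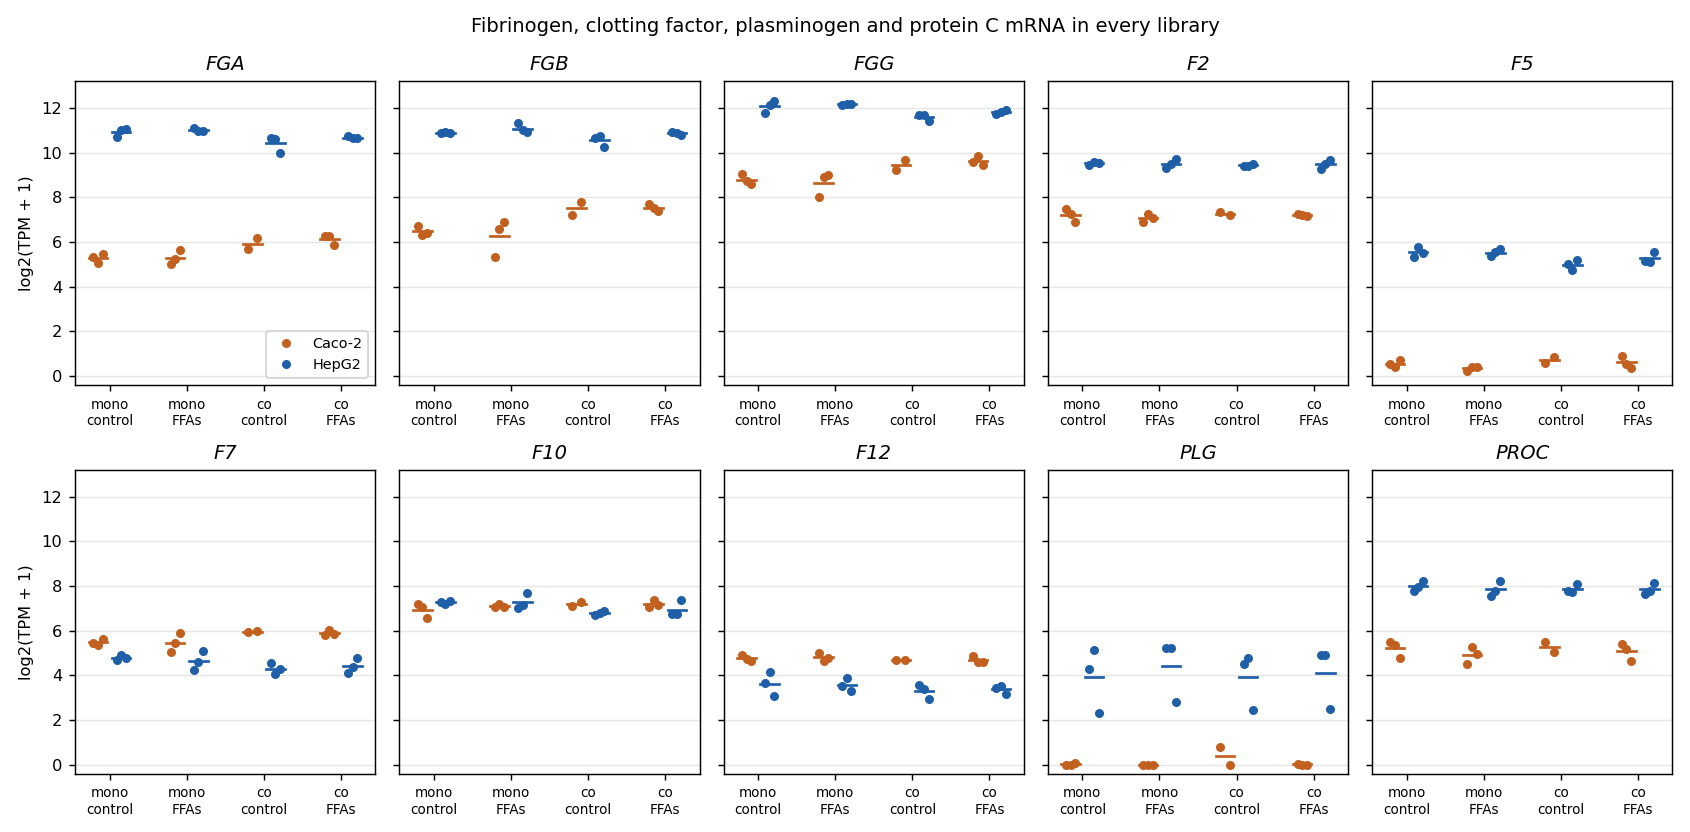
Level of each of the 10 genes in each library, as log2(TPM + 1), by group (mono, mono-cultured; co, co-cultured); points are libraries and horizontal lines are group means. FGA and F5 have the 2 largest differences between the lines in each culture and treatment, F10 did not pass the test in any of them, and F7 and F12 are higher in Caco-2.

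All 3 fibrinogen genes, prothrombin, F5, plasminogen and protein C were far higher in HepG2 than in Caco-2 cells, whereas F7 and F12 were higher in Caco-2. In mono-cultured control cells, FGA was at 1677, 2046 and 2109 TPM in HepG2 and at 38.9, 32.6 and 42.9 TPM in Caco-2. FGG was at 3508, 4531 and 5106 TPM in HepG2 and at 529, 426 and 385 TPM in Caco-2. Between these, FGB was at 1871, 1940 and 1869 TPM in HepG2 and at 103, 77.9 and 84.7 TPM in Caco-2. No library of one line overlapped the other for any chain, and the gap was widest for FGA. The difference, HepG2 minus Caco-2 on the log2(TPM + 1) scale, was 5.64 ± 0.18 (SE) for FGA, 4.41 ± 0.26 for FGB and 3.29 ± 0.20 for FGG. With limma and Benjamini-Hochberg adjustment over 16495 genes, 9 of the 10 members passed an adjusted p of 0.05, 7 higher and 2 lower in HepG2, beside 62.4% of all genes tested. The same counts held between FFAs-treated mono-cultures (beside 61.1% of all genes), co-cultured controls (58.8%) and FFAs-treated co-cultures (61%).

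The enzymes split by line. F2 was at 698, 768 and 749 TPM in HepG2 and 179, 149 and 118 TPM in Caco-2 (difference 2.32 ± 0.13, limma adjusted p = 1.34e-11). PROC was at 254 ± 38.7 TPM (SD, n = 3) in HepG2 and 36.8 ± 9.20 TPM in Caco-2 (2.78 ± 0.24, limma adjusted p = 5.04e-09). F5 was at 46.3 ± 7.22 TPM in HepG2, and in Caco-2 it did not exceed 0.88 TPM in any of the 11 libraries. F7 went the other way, with 43.8 ± 4.73 TPM in Caco-2 and 26.8 ± 2.09 TPM in HepG2 (-0.69 ± 0.21, limma adjusted p = 0.00902; 0.066 with quantile normalization). F12 was at 26.2 ± 2.59 TPM in Caco-2 and 11.9 ± 4.53 TPM in HepG2 (-1.13 ± 0.22, limma adjusted p = 0.00014). F10 was at 152.5 ± 7.74 TPM in HepG2 and 124.2 ± 27.2 TPM in Caco-2, and the difference of 0.32 ± 0.18 did not pass the test (limma adjusted p = 0.13). With median-of-ratios scaling F10 passed, at 0.51 (limma adjusted p = 0.0272), and with quantile normalization at 0.53 (0.0191). With the replicate block it passed at an unchanged 0.32 (limma adjusted p = 0.0434), and without the libraries numbered 3 it was 0.10 (0.48). The median difference of all genes was -0.20, and the members' median was 3.03.

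Within a line the order of the levels, in TPM, which is per transcript length, was not the same. In mono-cultured control HepG2 cells FGG ranked 14 among all genes by mean TPM, followed by FGA (34), FGB (36), F2 (155), PROC (622), F10 (1119), F5 (3757), F7 (5495), PLG (6605) and F12 (8065). Neighbors whose libraries overlapped were FGA with FGB, F7 with PLG, and PLG with F12. In mono-cultured control Caco-2 cells FGG ranked 340, then came F2 (1369), F10 (1682), FGB (2387), F7 (4363), FGA (4854), PROC (4991) and F12 (6101). There F2, F10 and FGB overlapped in turn, and so did F7, FGA, PROC and F12. F5 and PLG closed the Caco-2 order, under 1 TPM, and were not tested within that line.

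The 3 chain mRNAs were also mixed differently. In HepG2 libraries FGG made up 48.3% to 56.2% of the fibrinogen TPM, FGB 20.6% to 27.7% and FGA 20.1% to 24.8%. In Caco-2 libraries FGG made up 73.0% to 79.4%, FGB 12.1% to 19.9% and FGA only 5.80% to 9.66%. The ratio of FGG to FGA therefore ranged from 2.02 to 2.74 over 12 HepG2 libraries and from 8.11 to 13.6 over 11 Caco-2 libraries, with no overlap. All 3 chains together took 0.496% to 0.921% of the TPM of a HepG2 library and 0.0326% to 0.116% of a Caco-2 library. These shares are a description, since they follow from the line differences tested above.

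**Figure D2:**
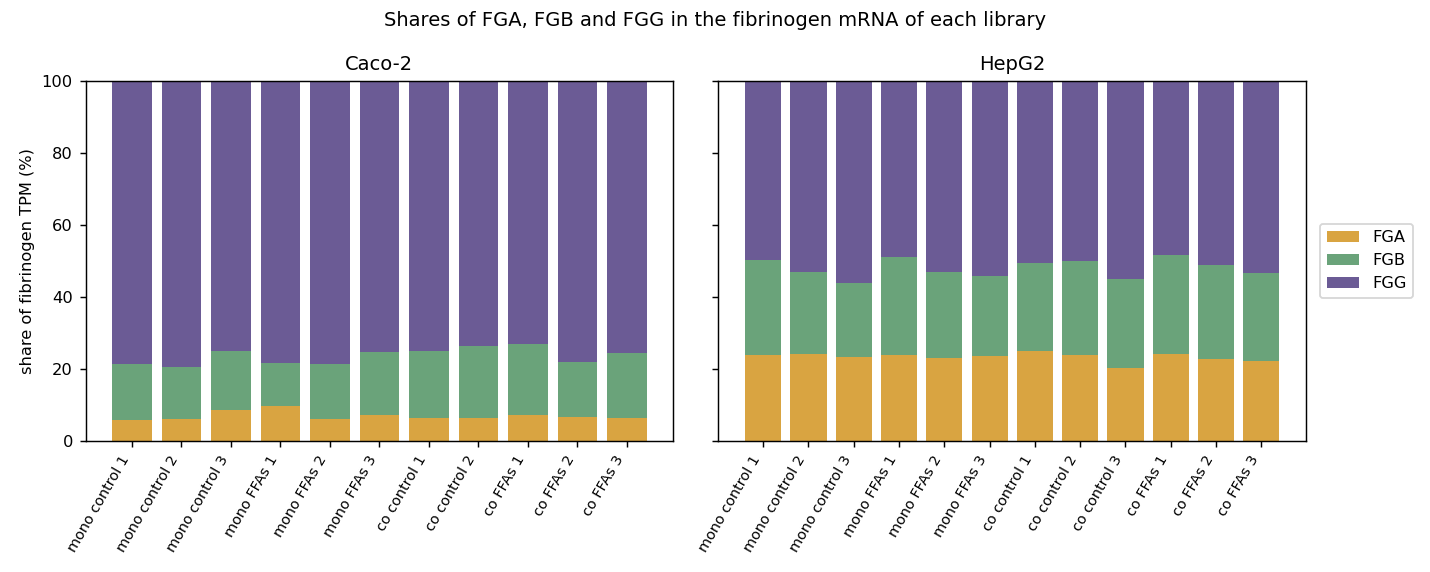
Share of FGA, FGB and FGG in the summed fibrinogen TPM of each library, in percent, with the group and replicate number under each bar. FGA takes 5.80% to 9.66% in the 11 Caco-2 libraries and 20.1% to 24.8% in the 12 HepG2 libraries.

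Fibrinogen was higher in co-culture than in mono-culture in Caco-2 cells and lower in HepG2 cells. Without a replicate block no chain passed the adjusted limma test within a line, whereas the difference between the lines did; with the block, FGG passed in HepG2. In Caco-2 cells, FGA was at 38.9, 32.6 and 42.9 TPM in mono-cultured control and 31.5, 36.7 and 48.3 TPM in mono-cultured FFAs-treated libraries. It was at 50.7 and 70.9 TPM in co-cultured control and 75.2, 74.9 and 56.6 TPM in co-cultured FFAs-treated libraries. All 5 co-cultured libraries were above all 6 mono-cultured ones. FGB averaged 86.2 ± 26.9 TPM (SD, n = 6) in mono-cultured and 185 ± 30.4 TPM (n = 5) in co-cultured Caco-2 libraries, with ranges of 39.3 to 118 and 147 to 221 TPM. FGG averaged 431 ± 101 TPM (n = 6) and 756 ± 120 TPM (n = 5), with ranges of 255 to 529 and 595 to 909 TPM. The same separation thus held for FGA, FGB and FGG, 3 of the 8 members tested, beside 0.749% of all 15081 genes. Among controls alone co-cultured libraries were above mono-cultured ones for 4 members (the chains and F7, beside 15.1%), and among FFAs-treated libraries for the 3 chains (beside 4.69%). Co-cultured libraries were below mono-cultured ones for 0 members over all libraries, in controls and with FFAs, beside 0.63%, 7.99% and 4.63%.

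Averaged over both treatments, the log2 difference of co-culture minus mono-culture in Caco-2 cells was 0.73 ± 0.14 (SE) for FGA, 1.15 ± 0.24 for FGB and 0.82 ± 0.18 for FGG. F7 followed at 0.46 ± 0.13, with 32.2 to 58.3 TPM in mono-cultured and 54.8 to 64.4 TPM in co-cultured libraries, which overlapped. F10 was at 0.17, PROC at 0.12, F2 at 0.09 and F12 at -0.10, each with an unadjusted limma p above 0.05. With limma and Benjamini-Hochberg adjustment over all genes, 0 of 8 members passed, beside 0% of all genes. The adjusted p was 0.213 for FGA, 0.249 for FGB, 0.273 for FGG and 0.308 for F7. At an unadjusted limma p under 0.05, 4 of 8 members were higher (FGA, FGB, FGG and F7) and 0 lower, beside 6.07% and 4.4% of all genes (10.5% in all). In the separate contrasts the chains were at 0.65, 1.03 and 0.66 for FGA, FGB and FGG without FFAs and at 0.82, 1.27 and 0.98 with FFAs. Each had 0 of 8 members past the adjusted threshold (beside 0.0199% of all genes without FFAs and 0% with FFAs) and the same 4 members at an unadjusted limma p under 0.05 (beside 5.43% and 6.09%).

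The share of HepG2 markers above the mono-cultured control level, applied to the HepG2 level of each gene, gives an estimate of HepG2 RNA. A2M, a gene with high TPM in HepG2, was at 32.9 and 78.1 TPM in replicate 1 of the co-cultured Caco-2 control and FFAs-treated groups. It was at 1.96 TPM in control replicate 2 and at 8.28 and 2.55 TPM in FFAs-treated replicates 2 and 3. The share used for the estimate was 0.70% in control replicate 1 and 1.95% in replicate 1 with FFAs. Mono-cultured HepG2 libraries held 7927, 7468 and 5974 TPM of A2M without FFAs and 6060, 7242 and 7552 TPM with FFAs. In both libraries the estimate for A2M was thus above the 32.9 and 78.1 TPM measured. In replicate 1 with FFAs the estimate gives 0.884 TPM of F5, where 0.88 TPM was measured. Mono-cultured Caco-2 libraries held 0.18 to 0.65 TPM of F5, and co-cultured control replicate 2, with an estimate of 0 TPM, held 0.78 TPM. The match for F5 near the floor is therefore no check of the estimate. For PLG the estimate gives 0.514 TPM in replicate 1 with FFAs, where 0.03 TPM was measured, so it did not hold for every gene. In that library it corresponded to 40.3 of 75.2 TPM of FGA, 42.4 of 208 TPM of FGB and 89.5 of 767 TPM of FGG. In control replicate 1 it corresponded to 13.6 of 50.7 TPM of FGA. With the estimate taken off, which was too high for A2M in these libraries, FGA in replicate 1 of both co-cultured groups fell within the mono-cultured range of 31.5 to 48.3 TPM. In control replicate 2 and FFAs-treated replicate 3 the estimate was 0 TPM, and FGA, at 70.9 and 56.6 TPM, was above that range. After subtraction of that estimate the averaged difference was 0.44 for FGA, 1.06 for FGB and 0.77 for FGG.

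In HepG2 cells the same chains, with F5, F7 and F10, were lower in co-culture. FGA was at 1677, 2046 and 2109 TPM in mono-cultured control and 1605, 1556 and 999 TPM in co-cultured control libraries. FFAs-treated cells held 2182, 1986 and 2017 TPM in mono-culture and 1693, 1591 and 1597 TPM in co-culture. The cultures did not overlap within either treatment, although the lowest mono-cultured library, a control, was below the highest co-cultured one. FGG was at 3508, 4531 and 5106 TPM against 3266, 3274 and 2733 TPM without FFAs. With FFAs it was at 4496, 4572 and 4677 TPM against 3411, 3611 and 3841 TPM. FGB was at 1893 ± 40.7 TPM (SD, n = 3) against 1516 ± 260 TPM without FFAs, and at 2173 ± 316 TPM against 1860 ± 92.1 TPM with FFAs, where the libraries overlapped.

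Without FFAs, all co-cultured HepG2 libraries were below all mono-cultured ones for 6 of 10 members (FGA, FGB, FGG, F5, F7 and F10), beside 7.6% of all 14255 genes. F5 was at 39.7 to 54.0 TPM over the 6 mono-cultured libraries of both treatments and 25.7 to 46.3 TPM over the 6 co-cultured ones. F7 was at 26.8 ± 2.09 TPM (SD, n = 3) against 18.7 ± 3.44 TPM in control cells, and F10 at 152.5 ± 7.74 TPM against 110 ± 7.48 TPM. With FFAs the separation held for 2 members, FGA and FGG, beside 5.44% of all genes. Over both treatments together it held for 0 members, beside 0.758%.

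Averaged over both treatments, co-culture minus mono-culture in HepG2 cells was -0.43 ± 0.11 (SE) for FGA, -0.28 ± 0.09 for FGB, -0.42 ± 0.09 for FGG, -0.41 ± 0.12 for F5, -0.37 ± 0.16 for F7 and -0.40 ± 0.13 for F10. F2 (-0.07), PROC (-0.06), F12 (-0.26) and PLG (-0.16) had an unadjusted limma p above 0.05, and the sign of PROC and PLG turned when single libraries were left out. With limma and Benjamini-Hochberg adjustment 0 of 10 members passed, beside 0.0561% of all genes, and the smallest adjusted p was 0.125, for FGG. With the replicate number as a block, 2 members passed at the same differences, FGG (limma adjusted p = 0.0314) and F10 (0.0354). Libraries of the same number and treatment in co-culture and mono-culture deviated together over genes in HepG2 (r from 0.109 to 0.601 over 6 pairs). Pairs of different number, over all HepG2 groups, had r from -0.49 to 0.34 (36 pairs), a range that held the lower of these values. Co-cultured control replicate 1 had 0.109 with mono-cultured control replicate 1 and 0.193 with mono-cultured control replicate 2. At an unadjusted limma p under 0.05, 6 of 10 were lower and 0 higher, beside 7.04% and 5.51% of all genes (12.5% in all). The single contrasts were -0.51, -0.34 and -0.49 for FGA, FGB and FGG without FFAs, and -0.34, -0.22 and -0.34 with FFAs. Of 10 members, 0 passed the adjusted limma threshold in either (beside 0% of all genes), and 6 without and 1 with FFAs had an unadjusted p under 0.05 (beside 7.53% and 5.63%). Without the libraries numbered 3, the contrast without FFAs was -0.23, -0.20 and -0.29, and the averaged one was -0.29, -0.23 and -0.33. By the same estimate Caco-2 RNA would add at most 1.77 TPM to any fibrinogen chain in these libraries, and the averaged differences of the 3 chains were the same to 0.01 after it was subtracted. Bulk libraries do not tell fewer fibrinogen-producing cells from less mRNA per cell.

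**Figure D3:**
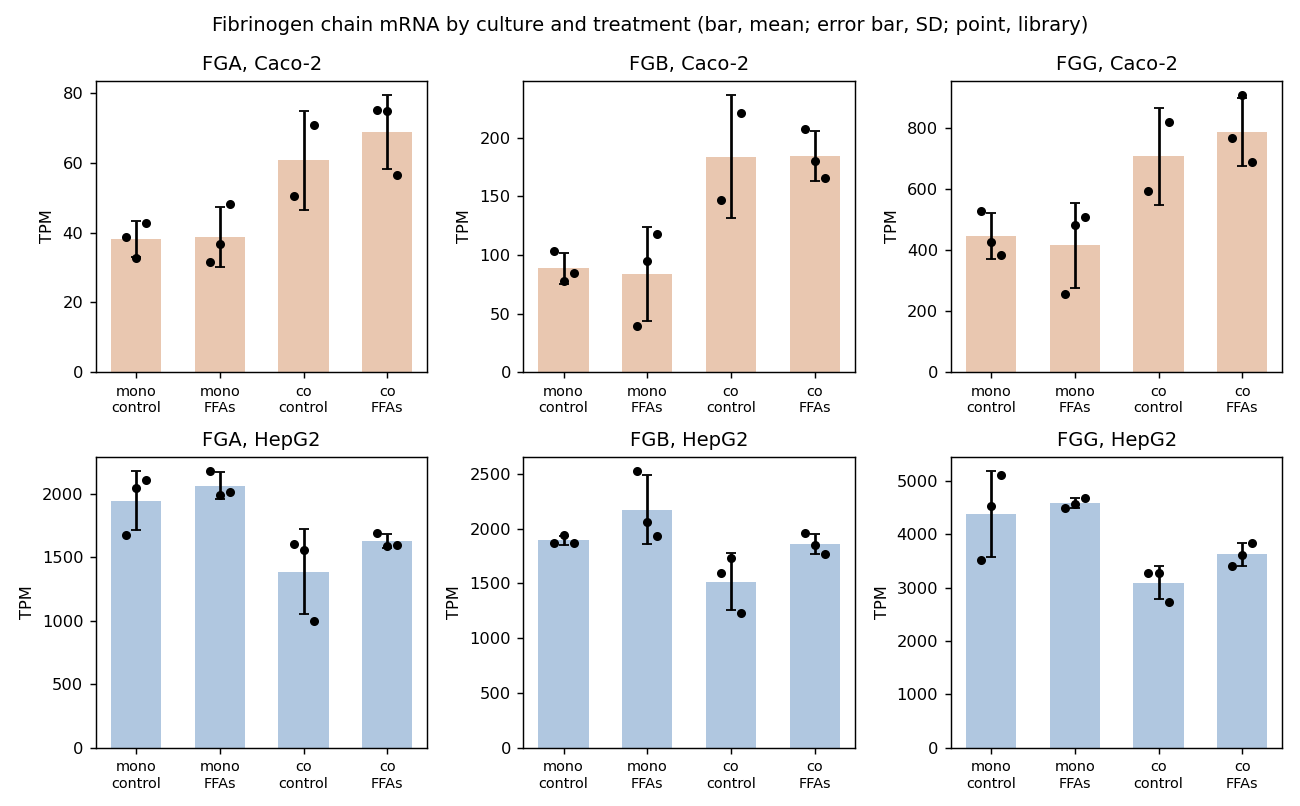
TPM of FGA, FGB and FGG in Caco-2 (upper row) and HepG2 (lower row) by culture and treatment; bars are means, error bars SD and points libraries, and each panel has its own axis from 0. The co-cultured libraries lie above the mono-cultured ones in Caco-2 and mostly below them in HepG2.

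The difference between the lines was tested directly in a fit of all 23 libraries. This test was added after the data had been seen, so its p-values are not those of a planned test. The co-culture effect in HepG2 minus that in Caco-2 was -1.16 ± 0.19 (SE) for FGA, -1.42 ± 0.27 for FGB and -1.23 ± 0.21 for FGG. All 3 chains passed (limma adjusted p = 0.011, 0.0231 and 0.0138), 3 of 10 members beside 0.533% of all 16495 genes, and 6 of 10 had an unadjusted limma p under 0.05, beside 14.6%. F7 (-0.83 ± 0.22, limma adjusted p = 0.0968), F5 (-0.61 ± 0.18, 0.118) and F10 (-0.57 ± 0.18, 0.144) did not pass. The Caco-2 side of this difference lay near the floor for F5, at 0.18 to 0.88 TPM, and for PLG, at 0 to 0.73 TPM. With the replicate block F7 (-0.88, limma adjusted p = 0.0239) and F10 (-0.54, 0.0387) passed as well. F7 also passed without Caco-2 mono-cultured FFAs-treated replicate 3 (-0.94, 0.0389) or HepG2 mono-cultured FFAs-treated replicate 1 (-0.93, 0.0445). F2, PROC, F12 and PLG were between -0.35 and -0.16, and the median of all genes was -0.05. With the estimated RNA of the other line subtracted, FGA was at -0.87 and no longer passed (limma adjusted p = 0.11), whereas FGB (-1.33, 0.0352) and FGG (-1.19, 0.0234) did. FGB lost the call without Caco-2 co-cultured control replicate 2 (-1.27, limma adjusted p = 0.0706) or HepG2 mono-cultured control replicate 2 (-1.41, 0.0517), and with no filter on low values (-1.42, 0.0594), and FGG with quantile normalization (-1.01, 0.0564).

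**Figure D4:**
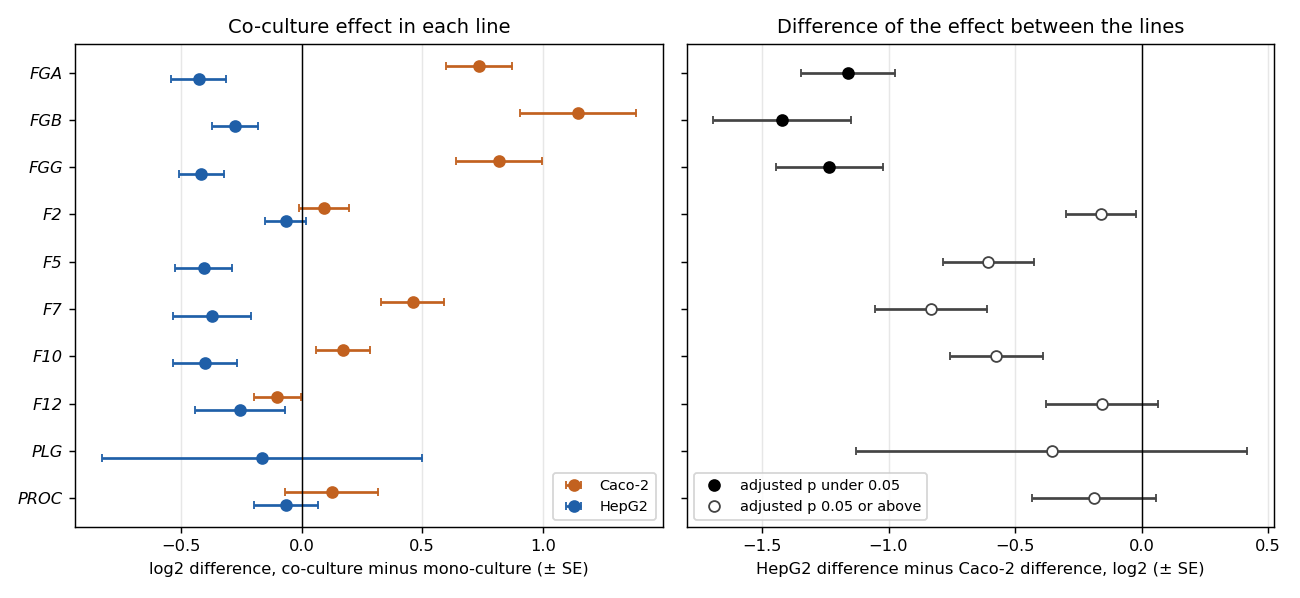
Left, log2 difference of co-culture minus mono-culture averaged over both treatments, ± SE, for Caco-2 and HepG2 (F5 and PLG were not tested in Caco-2). Right, the HepG2 difference minus the Caco-2 difference, ± SE, with filled points for an adjusted p under 0.05; only FGA, FGB and FGG are filled, at -1.16, -1.42 and -1.23.

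The effect of FFAs was compared within each culture. With limma and Benjamini-Hochberg adjustment, 0 members passed in mono-culture or co-culture of either line, beside 0% of all genes in each contrast except Caco-2 co-culture, with 0.0199%. At an unadjusted limma p under 0.05 the count was 0 of 8 in both Caco-2 contrasts, beside 2.61% in mono-culture and 2.83% in co-culture. In HepG2 it was 0 of 10 in mono-culture, beside 2.24%, and 1 of 10 in co-culture, beside 1.84%. That gene was FGB, at 1593, 1728 and 1227 TPM without and 1955, 1852 and 1772 TPM with FFAs, libraries that did not overlap (difference 0.31, limma adjusted p = 1.00). Averaged over both cultures, FGB was at 0.25 ± 0.09 (SE) in HepG2, with an unadjusted limma p of 0.0217 and an adjusted p of 1.00, as the single member of 10 under 0.05, beside 3.49% of all genes. In Caco-2 it was 0 of 8, beside 3.99%. The averaged differences of the members ranged from -0.25 (PROC) to 0.10 (FGA) in Caco-2, and from -0.07 (PROC) to 0.35 (PLG) in HepG2. The sign of FGA in Caco-2 and of PROC and PLG in HepG2 turned when single libraries were left out. The test of whether the FFAs effect differed between co-culture and mono-culture passed for 0 members in either line, with 0 at an unadjusted limma p under 0.05 as well, beside 1.94% of all genes in Caco-2 and 1.16% in HepG2.

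The study's own criteria for the 4 groups of a line combined an analysis of variance, unadjusted at 0.05, with at least a 1.2-fold change between any pair of groups. In Caco-2 cells 3 members met them (FGA, FGB and FGG), beside 3.08% of the genes tested. In HepG2 cells 4 members did (FGA, FGB, FGG and F5), beside 3.56%. With Benjamini-Hochberg adjustment the counts were 0 and 0. Leaving out single libraries gave 1 to 4 members in either line, and in Caco-2 it was FGA alone without any single co-cultured FFAs-treated library, or without mono-cultured control replicate 2 or 3. With the estimated HepG2 RNA subtracted, 0 members met them in Caco-2.

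Plasminogen, factor XII and protein C varied in HepG2 with the replicate number of the library more than with culture or treatment. PLG was at 3.94, 6.06, 4.45 and 4.59 TPM in the 4 libraries numbered 3 (mono-cultured control, mono-cultured FFAs, co-cultured control and co-cultured FFAs), and at 18.3 to 36.8 TPM in the other 8. F12 was at 6.76 to 8.86 TPM in the libraries numbered 3 and at 9.51 to 16.6 TPM in the others. PROC went the other way, at 268 to 294 TPM against 188 to 250 TPM. Libraries numbered 3 were below all others for 2 of 10 members, beside 6.81% of all genes, and above all others for 1, beside 4.91%. Across the 12 HepG2 libraries PLG and PROC had a Pearson r of -0.86, as a description. What the number stands for is not given in the labels, so its part cannot be told apart from that of a day, chip or handling. Without all libraries numbered 3, the difference between the lines in the co-culture effect was -1.21 for FGA, -1.55 for FGB and -1.23 for FGG, all called, and F7 also passed (-0.96, limma adjusted p = 0.034). This left out co-cultured FFAs-treated Caco-2 replicate 3, with HepG2 markers in the mono-cultured range (0.105%). It kept the co-cultured Caco-2 libraries above that range, at 0.825%, 2.08% and 0.242%. In the Caco-2 libraries 0 members were set apart in either direction by the number 3, beside 1.86% of all genes above and 1.18% below.

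**Figure D5:**
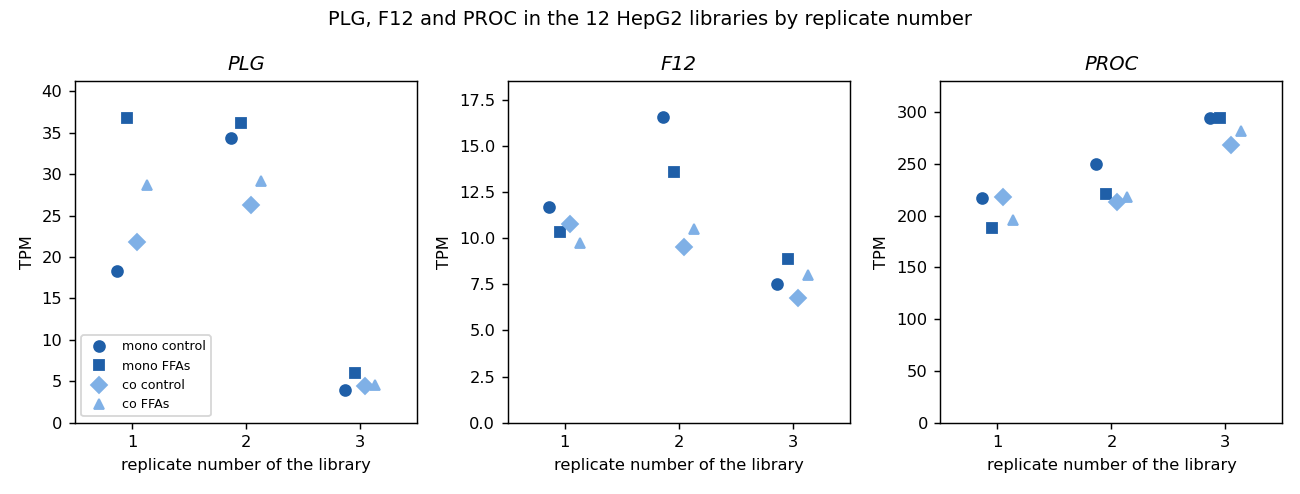
TPM of PLG, F12 and PROC in the 12 HepG2 libraries, by the replicate number of the library on the x axis; the marker shape gives the group. PLG is at 3.94 to 6.06 TPM in the libraries numbered 3 and at 18.3 to 36.8 TPM in the others.

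In Caco-2 cells PLG was listed at 0 in 8 of 11 libraries. It reached 0.73 TPM in co-cultured control replicate 1 and at most 0.06 TPM elsewhere. From the HepG2 marker share, 0.132 TPM of PLG would be estimated for co-cultured control replicate 1.

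The chains were correlated across the libraries of a line, more closely in Caco-2 than in HepG2 for FGB with FGG. Over 11 Caco-2 libraries the Pearson r of log2(TPM + 1) was 0.97 between FGB and FGG, 0.91 between FGA and FGB, and 0.90 between FGA and FGG; F7 had 0.85 to 0.90 with them. Over 12 HepG2 libraries it was 0.91 between FGA and FGG and 0.88 between FGA and FGB, but 0.72 between FGB and FGG, below the 0.74 of FGG with F5. F7 had 0.84 with its neighbor F10. F2 and PROC followed each other in both lines (0.86 in Caco-2 and 0.88 in HepG2). These values hold culture differences and the line-wide scaling of TPM in common, so they are given without a test.

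Among 15073 other genes tested in Caco-2, those most like the mean of the 3 chains over 11 libraries were SELENOP (r = 0.97), a liver-type selenium carrier, SPATA20 (0.95), NDRG1 (0.94), SI (0.94), the brush border enzyme sucrase-isomaltase, and MIB2 (0.93). SELENOP ranged from 134 to 297 TPM and SI from 4.23 to 16.6 TPM. In HepG2, among 14245 genes over 12 libraries, VTN (0.93), which encodes the plasma adhesion protein vitronectin, led before ALDH18A1 (0.88), BAP1 (0.88), RPP25L (0.88) and MORN3 (0.88). VTN ranged from 240 to 369 TPM.

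Of 39 further genes of clotting and fibrinolysis, 25 were expressed well enough to be tested in Caco-2 and 29 in HepG2. For co-culture averaged over both treatments, 0 passed limma's adjusted threshold in either line, beside 0% of all genes in Caco-2 and 0.0561% in HepG2. At an unadjusted limma p under 0.05, 5 were higher and 0 lower in Caco-2, beside 6.07% and 4.4% of all genes. In HepG2, 1 was higher and 6 lower, beside 5.51% and 7.04%. The medians were 0.10 and -0.13, beside 0.03 and -0.02 for all genes. For FFAs averaged over both cultures 0 passed in either line, beside 0% of all genes in each. At an unadjusted limma p under 0.05 there was 1 of 25 in Caco-2 and 0 of 29 in HepG2, beside 3.99% and 3.49%. In the test of the difference between the lines, 1 of 30 passed, beside 0.533% of all genes. That gene was SERPINF2, which encodes alpha-2-antiplasmin, the main inhibitor of plasmin (-1.02 ± 0.19, limma adjusted p = 0.0231). SERPINF2 was at 257, 254 and 170 TPM in mono-cultured and 321 and 298 TPM in co-cultured Caco-2 controls, and at 573, 654 and 607 against 446, 437 and 398 TPM in HepG2 controls. With FFAs it was at 175, 232 and 225 against 275, 401 and 267 TPM in Caco-2, and at 539, 658 and 789 against 396, 431 and 597 TPM in HepG2. Its adjusted p was 0.0561 without Caco-2 co-cultured control replicate 1, 0.0517 without HepG2 mono-cultured control replicate 2 and 0.0538 with no filter on low values. Within HepG2 its averaged co-culture difference of -0.50 passed with the replicate block (limma adjusted p = 0.0261) and not without it (0.125).

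By level, the leading other genes in HepG2 were A2M, a broad protease inhibitor (mean 6736 TPM), TFPI, which blocks F7 with tissue factor (1054 TPM), SERPINF2 (544 TPM) and SERPIND1, heparin cofactor II (430 TPM). In Caco-2 they were SERPINF2 (261 TPM), F2RL1, a protease-activated receptor (188 TPM), MCFD2, which helps to export F5 and F8 (136 TPM), and TFPI (115 TPM). Of 30 genes tested between mono-cultured controls, 19 were higher and 6 lower in HepG2 (limma adjusted p under 0.05), beside 3857 higher and 6429 lower among 16495 genes, 62.4% called. F9 and F13A1 were listed at 0 in all 23 libraries.

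Among regulators, HNF4A, a transcription factor of the liver program, was at 93.1 to 152 TPM in Caco-2 and 59.6 to 102 TPM in HepG2 libraries. SOCS3, a feedback target of interleukin-6 signaling, was at 7.0 to 14.8 TPM in Caco-2 and 0.49 to 4.55 TPM in HepG2. Its averaged co-culture difference was 0.43 ± 0.14 (SE) in Caco-2 and 0.69 ± 0.19 in HepG2, and neither passed (limma adjusted p = 0.355 and 0.189). Both genes were named after their values were seen.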

How the data were processed

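mRNA-seq values of 23 libraries (Caco-2 11, HepG2 12) were used. The authors deposited 1 table of TPM per library. They removed reads of rRNA, tRNA and the mitochondrial genome (Bowtie 2.1.0), aligned the remainder (STAR 2.7.1a, GRCh38, annotation of Ensembl 98) and estimated TPM by RSEM 1.3.0, as the study's methods and the submitters' processing notes give them. cDNA was made with the SMART-Seq v4 kit. TPM keep no counts, so depth is unknown, no count tool was used, and a gene at 0 is called listed at 0. A gene that rises takes its share from others.

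Groups and replicate numbers came from the labels; p-values measure only the spread between these libraries, which may be technical. Values were analysed as log2(TPM + 1), so differences of low genes are understated, with limma 3.58.1 (trend) in R 4.3.3: 4 groups of a line in 1 fit, or all groups for contrasts between lines, keeping genes whose mean reached 1 TPM in any group, Benjamini-Hochberg adjusted at 0.05 over all of them. F5 and PLG did not pass this filter in Caco-2. The analysis of variance used all genes above 0 TPM in a library of the line. Scripts were tested on simulated data. Coordinates are from GENCODE v44, promoters from the RefSeq table (GRCh38.p14), where all 10 members matched. Python 3.11.15 with pandas 2.3.3 and numpy 2.4.6 was used for descriptions.

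Members and gene lists were chosen with earlier results of these data known. All members are named. Of the other clotting genes, those past the adjusted threshold for culture or FFAs and the 4 with the highest mean TPM per line are named, and the 5 genes most like fibrinogen by Pearson r. Alternatives were a pseudocount of 0.1, no filter, median-of-ratios and quantile scaling, no trend, only the groups compared, a replicate block, subtraction of the other line's RNA and leaving out each library. The test between lines, its alternatives, those of SERPINF2, leaving out every library numbered 3, and the block together with the subtraction were added after seeing the data. Protein sequences were not used here. Some genes of the regulator list, and counts over that list, are not reported here.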

Additional observations from a re-analysis of the deposited data

Results flagged for a closer look

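The co-culture effect on fibrinogen differed between the cell lines, by the limma test of the difference itself with Benjamini-Hochberg adjustment over all genes. This test was added after the data had been seen, and the members were chosen with earlier results known. On the log2(TPM + 1) scale the effect in HepG2 minus that in Caco-2 was -1.16 for FGA (0.73 in Caco-2 and -0.43 in HepG2), -1.42 for FGB (1.15 and -0.28) and -1.23 for FGG (0.82 and -0.42). HepG2 markers were above the mono-cultured range in 3 of the 5 co-cultured Caco-2 libraries, and with the RNA estimated from them subtracted the FGA value was -0.87 and no longer passed (limma adjusted p = 0.11). The part of that RNA in the result was not tested further.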

How the results depend on the processing

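Among 331 recomputed counts of members called, 310 kept the same verdict and 21 moved. In HepG2, co-culture against mono-culture called 2 members (FGG and F10) with the replicate block, also with the other line's RNA subtracted as well. The difference between the lines called 5 with the replicate block (FGA, FGB, FGG, F7 and F10) and 2 to 4 when single libraries were left out. The study's criteria in Caco-2 gave 0 members with Benjamini-Hochberg adjustment, 1 with the replicate block, 0 with the other line's RNA subtracted and 1 to 4 without single libraries. In HepG2 they gave 2 with median-of-ratios scaling, 0 with Benjamini-Hochberg adjustment and 1 to 4 without single libraries. The causes were not tested.

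Among 1200 recomputed log2 differences of named genes, 1164 kept direction and side of the threshold, 9 lost the call, 14 gained it and 13 turned sign. Those that turned sign were all without a call. Without single libraries the HepG2 co-culture difference of PLG ranged from -0.57 to 0.24 (0.20, 0.24, 0.15, 0.04 and 0.03 where it turned) and that of PROC from -0.14 to 0.023, and the difference between the lines for PLG from -0.76 to 0.049 (0.011 and 0.049 where it turned). The averaged FFAs difference ranged from -0.021 to 0.22 for FGA in Caco-2, and in HepG2 from -0.16 to 0.0014 for PROC and from -0.047 to 0.76 for PLG (-0.012 and -0.047 where it turned). For FGA it was -0.027 with the replicate block and other line's RNA subtracted.

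Libraries with the same number had correlated deviations from their group means of -0.09 to 0.31 in Caco-2 (15 pairs) and 0.03 to 0.60 in HepG2 (18 pairs). Pairs of different number ranged from -0.28 to 0.28 in Caco-2 (30 pairs) and from -0.49 to 0.34 in HepG2 (36 pairs). Not every pair of the same number was above 0.1, so the numbers were not taken to pair all libraries of a line. The pairs of co-culture and mono-culture within a treatment were all above 0.1 in HepG2, and the blocked values that changed a call are given beside the results.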
